A study of Mus musculus with 8 samples.

Results

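Receptors for neuropeptides other than neuropeptide Y, melanocortins, ghrelin, calcitonin and incretins were examined in ribosome-bound RNA of AgRP neurons. The set lists 37 mouse genes by symbol, and 36 of them had a row among the 45706 genes of the deposited table. The galanin receptor gene Galr3 is not analysed here. The members were read from the table by gene name, and their levels were compared between ribosome immunoprecipitates and whole-tissue RNA. All 8 libraries came from mice that carried Mff fl/fl, AgRP-IRES-Cre tg/wt and RpL10a-GFP fl/wt, so that Mff, the gene of mitochondrial fission factor, was floxed in cells in which Cre from the Agrp locus also switched on a GFP-tagged ribosomal protein. The 4 immunoprecipitate (IP) libraries hold RNA pulled down with antibodies to GFP, and the 4 input libraries hold RNA of the dissected hypothalamic tissue. Each library is a pool of 3 mice of both sexes, 11 to 12 weeks old and in the random-fed state. Because every library came from mice of this 1 genotype, the comparison is between its fractions and says nothing of the effect of Mff. Input also holds RNA of cells without Cre, so cell type and deletion cannot be told apart between the fractions.

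Neuropeptide receptors are almost all G protein-coupled receptors of the cell surface. Those that couple to Gi/o, such as the opioid and somatostatin receptors, lower cyclic AMP and open potassium channels, and usually quiet a neuron. Those that couple to Gq, such as the tachykinin and orexin receptors, release calcium from stores and usually excite it, and those that couple to Gs, such as the receptors for corticotropin-releasing factor and PACAP, raise cyclic AMP. AgRP neurons drive feeding and are known to be excited by PACAP and inhibited by opioid peptides. In tissue the receptors are spread over many cell types, so that input RNA gives the mean over all of them.

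The start regions of members whose difference between fractions was among the largest in either direction are shown as sequence context. Each is the 250 bases before the RefSeq transcription start on the plus strand of GRCm38.p6, with matches to TATAAA in capitals. The first pair belongs to genes higher in IP, Npffr2 at chr5:89527179-89527428 and Crhr1 at chr11:104132531-104132780. The second pair belongs to genes lower in IP, Cckbr at chr7:105425481-105425730 and Tacr3 at chr3:134828757-134829006.
Npffr2: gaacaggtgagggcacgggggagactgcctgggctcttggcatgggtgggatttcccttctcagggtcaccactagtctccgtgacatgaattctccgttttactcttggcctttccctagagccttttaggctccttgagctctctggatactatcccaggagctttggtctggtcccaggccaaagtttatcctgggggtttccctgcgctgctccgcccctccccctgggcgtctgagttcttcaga
Crhr1: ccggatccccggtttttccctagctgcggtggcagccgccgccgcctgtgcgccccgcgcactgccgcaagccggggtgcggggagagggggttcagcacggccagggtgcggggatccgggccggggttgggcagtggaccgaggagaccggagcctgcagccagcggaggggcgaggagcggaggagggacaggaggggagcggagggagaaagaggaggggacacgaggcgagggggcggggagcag
Cckbr: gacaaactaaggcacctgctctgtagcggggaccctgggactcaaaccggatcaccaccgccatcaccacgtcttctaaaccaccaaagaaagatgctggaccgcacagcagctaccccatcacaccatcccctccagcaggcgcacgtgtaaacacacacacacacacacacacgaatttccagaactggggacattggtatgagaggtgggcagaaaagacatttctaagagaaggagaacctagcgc
Tacr3: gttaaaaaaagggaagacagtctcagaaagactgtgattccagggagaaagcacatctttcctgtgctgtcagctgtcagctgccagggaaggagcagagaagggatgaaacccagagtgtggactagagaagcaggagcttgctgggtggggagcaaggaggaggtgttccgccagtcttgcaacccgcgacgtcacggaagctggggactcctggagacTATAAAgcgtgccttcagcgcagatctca
The Crhr1 window was the richest of these in G and C, with 74.8% and 25 CG dinucleotides. Npffr2 had 57.2% and 6 CG, Cckbr 53.6% and 9, and Tacr3 54.4% and 7, against medians of 52.4% and 6 over 32851 RefSeq windows of that length. Among these 4 windows TATAAA was found in that of Tacr3, and 12.37% of all windows hold it on either strand. Over all called members it was in 1 of 8 windows of higher genes (Oprl1) and in 1 of 8 of lower genes (Tacr3). The motifs TAATTA, TGACGTCA and TTCNNNGAA, searched on both strands and present in 4.84%, 1.55% and 7.02% of all windows, had no match in the 16 windows available for called members. Of the 36 members 29 had an entry, and Agtr1a, Sstr1, Oprk1, Galr1, Trhr, Trhr2 and Cckar did not.

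Library totals ran from 39.9 to 74.6 M estimated counts, of which the 36 members together took 14602 to 27617 counts per library. Levels are given as counts per M counts (CPM) after TMM scaling, and a difference is the log2 fold change of IP over input with its standard error (SE). A gene is called when its adjusted p in edgeR's quasi-likelihood test is under 0.05, over 17000 tested genes. The IP fraction carried AgRP neuron RNA: all 8 AgRP neuron markers were higher, their summed level was 77.3 to 86.8 CPM in input and 3113 to 4757 CPM in IP, and Agrp rose from 3.35 ± 0.74 to 843 ± 170 CPM (SD, n = 4). Mff was at 112.2 to 131.9 CPM in input and 64.0 to 71.2 CPM in IP, and reads outside the floxed exons still count, so these levels do not check the deletion. Of 65 markers of other cell types in 8 lists (astrocytes, oligodendrocytes and their precursors, microglia, vascular cells, tanycytes and ependyma, other arcuate and other hypothalamic neurons), 53 were lower in IP, 0 higher and 12 not called, with list medians between -1.30 and -1.87. The summed astrocyte marker level was 2586 to 3222 CPM in input and 780 to 1043 CPM in IP, that of other hypothalamic neurons 699 to 853 and 215 to 312 CPM, and the part of such RNA in the receptor results was not tested. Input RNA was not from the arcuate nucleus alone. Pmch, a gene of lateral hypothalamic neurons, was at 295 ± 27 CPM in input, where Agrp was at 3.35 ± 0.74. Tek, Tmem212, Kiss1 and Crh were at 0 in at least 1 IP library. IP replicate 3 stood apart from the other IP libraries. Compared pairwise over all tested genes, the IP pairs that held it had a chi-square of 222 to 329 per degree of freedom, and the others 47.1 to 60.2. Fewer cells of a type and less RNA per cell cannot be told apart in such bulk samples.

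Of the 36 receptor genes 35 were tested, and Prlhr, the receptor gene of prolactin-releasing peptide, was too low. In IP 8 receptor genes were higher, where 24.5% of all tested genes were higher, and 10 were lower, where 20.9% were lower, and 45.4% were called in either direction. As shares of the 35 these are 22.9% and 28.6%, so the share that was higher is near the background. The median log2 fold change was -0.48 over the receptors and -0.01 over all tested genes. With a 2-fold difference also required, 4 receptors were higher (11.4%, background 8.37%) and 10 lower (28.6%, background 12.3%). In 17 of the 18 called receptors the 4 IP libraries and the 4 input libraries did not overlap, the exception being Prokr2. The calls were made from these same libraries, so this separation adds no support to them. Over the 35 tested receptors, called or not, 20% had every IP library above every input library and 34.3% had every one below. Over all tested genes these shares were 24.1% and 24%. Without IP replicate 3, 8 of 36 tested receptors were higher and 12 lower. In that fit 4508 of 17401 tested genes were higher and 4230 lower, so the background moved as well. Of all called genes 54.1% were higher, and 43.3% with upper quartile scaling. With offsets for GC content and length that were not centred per library, as first run, 78.2% were higher and the median of all genes rose to 0.40. Under these offsets 10 receptors were higher, Avpr1a (1.12, adjusted p = 0.012) and Brs3 (1.29, 0.0226) among them, and 8 were lower, with Trhr and Hcrtr2 not called.

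**Figure D1:**
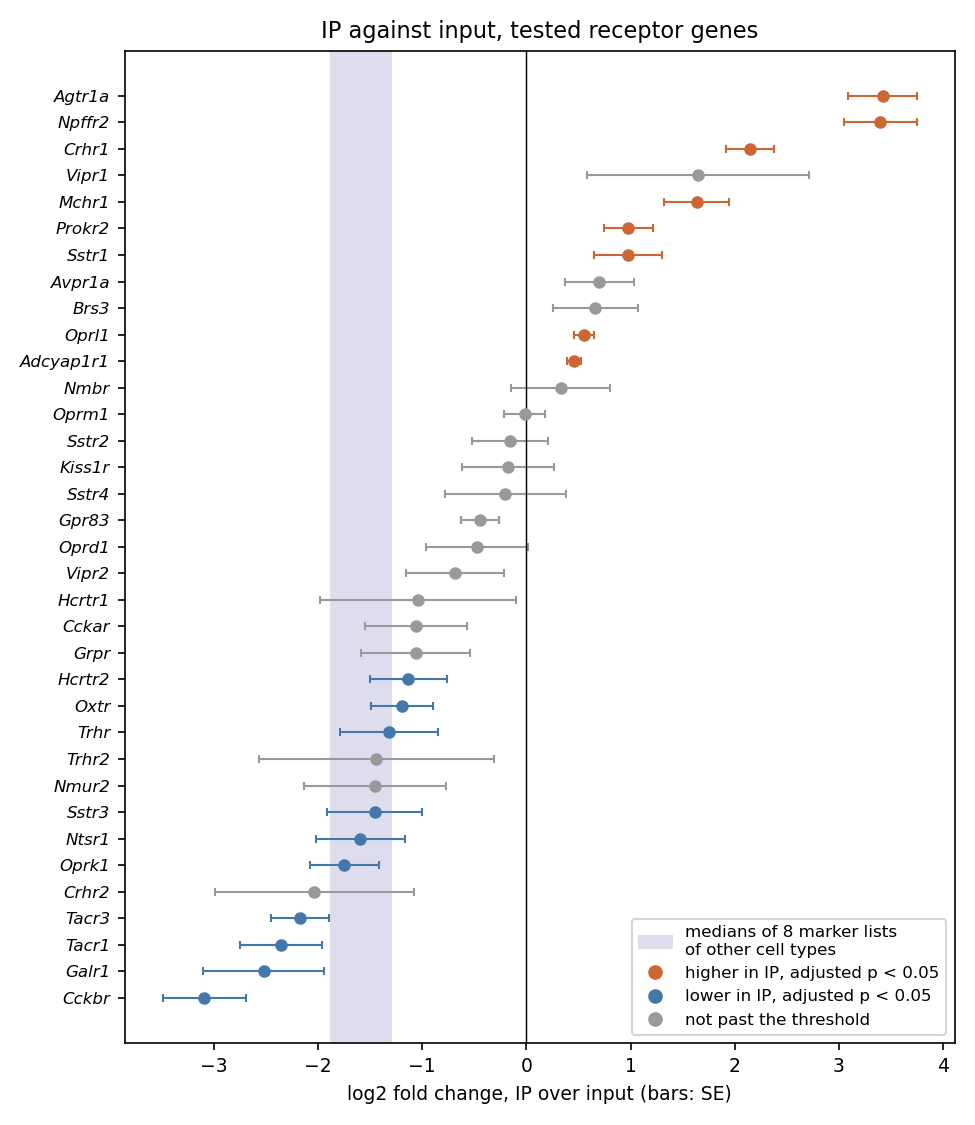
Log2 fold change of IP over input for the 35 tested receptor genes, with bars of 1 SE, orange for genes called higher, blue for genes called lower and grey for the rest. The shaded band spans the medians of 8 marker lists of other cell types, from -1.87 to -1.30, and not the wider spread of single markers. Of the called genes Cckbr, Galr1, Tacr1 and Tacr3 lie to its left, as does Crhr2 (-2.04), which was not called.

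The largest increases were those of Agtr1a, Npffr2, Crhr1 and Mchr1. Agtr1a (ENSMUSG00000049115, chromosome 13, 30336441 to 30382867, plus strand), which encodes the angiotensin II receptor type 1a, stood at 0.582, 0.526, 0.783 and 0.815 CPM in input replicates 1 to 4. In IP replicates 1 to 4 it was at 9.66, 6.52, 4.40 and 8.40 CPM. Even the lowest IP library, replicate 3, was well above the highest input library, and the log2 fold change was 3.42 ± 0.33 (adjusted p = 7.74e-06). Its near-identical paralog Agtr1b, with which reads could be shared, was listed at 0.105 ± 0.076 CPM in input and 0.00442 ± 0.00885 CPM in IP (SD, n = 4), too low to test. The second angiotensin receptor gene, Agtr2, was lower, at 0.516 ± 0.136 CPM in input and 0.0203 ± 0.0235 CPM in IP, where it had 0 to 3 counts per library. Agt, the gene of the precursor angiotensinogen and an astrocyte marker, was lower in IP as well (48.8 ± 3.2 and 12.9 ± 3.7 CPM).

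Npffr2 (ENSMUSG00000035528, chromosome 5, 89527429 to 89583740, plus strand) encodes a receptor for neuropeptide FF, an RF-amide peptide. Its level was 0.437, 0.364, 0.582 and 0.372 CPM in input replicates 1 to 4 and 3.84, 4.20, 4.08 and 6.46 CPM in IP replicates 1 to 4. The fractions were far apart, with a log2 fold change of 3.40 ± 0.35 (adjusted p = 1.36e-05). IP replicate 4 stood above the other IP libraries. The related receptor gene Npffr1, which is no member of the set, was higher by 0.72 ± 0.20 (adjusted p = 0.013). The ligand gene Npff was too low to test, at 0.141 ± 0.121 CPM in input and 0.0236 ± 0.0473 CPM in IP.

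Among receptors that couple to Gs, Crhr1 and Adcyap1r1 were higher in IP. Crhr1 (ENSMUSG00000018634, chromosome 11, 104132855 to 104175523, plus strand) encodes the receptor 1 of corticotropin-releasing factor, the peptide that starts the pituitary stress response. It was at 1.97, 2.39, 2.35 and 3.17 CPM in input replicates 1 to 4 and at 11.8, 10.7, 7.91 and 13.4 CPM in IP. All IP libraries lay above all input libraries, by a log2 fold change of 2.15 ± 0.23 (adjusted p = 1.8e-05). Crhr2, the second receptor gene of this family, which also binds urocortins, had -2.04 ± 0.96 (adjusted p = 0.105). It stood at 0.910, 1.08, 0.722 and 1.26 CPM in input and at 0.124, 0.302, 0 and 0.553 CPM in IP. The IP libraries lay below the input libraries, but with 0 to 22 counts in an IP library the difference was not past the threshold. The 0 counts in IP replicate 3 allow up to 0.0433 CPM, the level of 3 counts, and such limits cover counting error only. Without IP replicate 3 Crhr2 was called lower (-1.61, adjusted p = 0.0492), as it was without IP replicate 4 (-2.81, 0.0495) and in limma-voom (-3.40, 0.0177), and its adjusted p ran up to 0.215 over 17 alternatives. The ligand gene Crh was lower in IP (0.589 ± 0.226 and 0.0823 ± 0.0600 CPM).

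Adcyap1r1 (ENSMUSG00000029778, chromosome 6, 55451978 to 55501451, plus strand) encodes PAC1, the main receptor for PACAP. It had the most counts of all members. Input replicates 1 to 4 stood at 157.7, 159, 144.7 and 161.7 CPM and IP replicates 1 to 4 at 211.8, 196.9, 218.1 and 227.9 CPM. The groups did not overlap and were tight, so a difference of 0.46 ± 0.07 on the log2 scale was called (adjusted p = 0.000195). The other receptor genes for VIP and PACAP were not called. Vipr2 had -0.68 ± 0.47 (adjusted p = 0.267), with IP replicate 1 at 0.725 CPM and the other IP libraries at 4.58 to 6.36 CPM. Vipr1 had 1.65 ± 1.07 (adjusted p = 0.236) from 0, 0.662, 2.12 and 0.453 CPM in IP and 0.210 to 0.309 CPM in input. The 0 in IP replicate 1 allows up to 0.0531 CPM, and without that library Vipr1 was called higher (2.07, adjusted p = 0.0254, with 0.0254 to 0.955 over 17 alternatives). IP replicate 3 held 147 counts, against 35 and 18 in replicates 2 and 4, and without it the log2 fold change was 0.52 (adjusted p = 0.696), and 0.11 (0.955) in limma-voom. The ligand genes Adcyap1 (-0.90 ± 0.15) and Vip (-2.87 ± 0.66) were both lower in IP.

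Of 10 receptors counted as coupling to Gi/o, 3 were higher, 3 lower and 4 not called, counts near the shares of all tested genes (24.5% higher and 20.9% lower). Npffr2, Prlhr and Gpr83 were set apart as receptors of several or unsettled couplings, and the counts by class depend on this assignment. Mchr1 (ENSMUSG00000050164, chromosome 15, 81235499 to 81238964, plus strand) encodes the receptor for melanin-concentrating hormone, a feeding-promoting peptide of the lateral hypothalamus. It stood at 3.64, 3.44, 4.54 and 4.68 CPM in input replicates 1 to 4 and at 9.41, 7.03, 21.4 and 12.7 CPM in IP. The fractions did not overlap, IP replicate 3 was the highest, and the log2 fold change was 1.64 ± 0.31 (adjusted p = 0.0013). Pmch, the gene of the ligand, was lower by -1.86 ± 0.14.

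**Figure D2:**
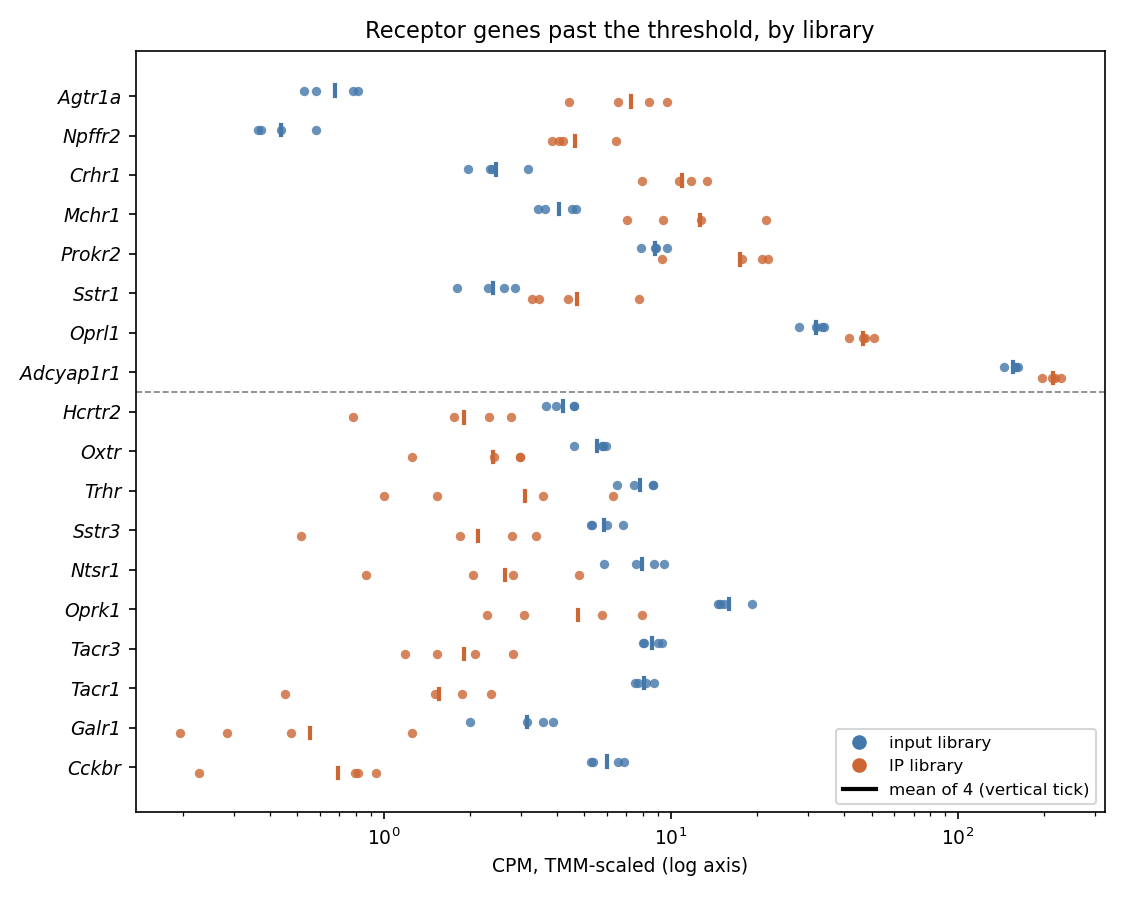
TMM-scaled CPM on a log axis for each of the 18 called receptor genes, with 4 input libraries (blue) and 4 IP libraries (orange) as points and their mean as a tick. Genes above the dashed line were higher in IP and genes below it lower, and the fractions overlap in Prokr2, where IP replicate 3 lies at 9.33 CPM.

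Of the opioid receptor genes, Oprl1 was higher, Oprk1 lower, and Oprm1 and Oprd1 were not called. Oprl1 (ENSMUSG00000027584, chromosome 2, 181715016 to 181720985, plus strand), the receptor gene for nociceptin, stood at 33.5, 28.0, 34.0 and 32.1 CPM in input replicates 1 to 4 and at 47.4, 46.9, 41.6 and 51.0 CPM in IP. The groups did not overlap (0.55 ± 0.10, adjusted p = 0.00075). Oprk1 (ENSMUSG00000025905, chromosome 1, 5588466 to 5606131, plus strand), the kappa receptor gene for dynorphin, stood at 19.2, 14.8, 15.3 and 14.6 CPM in input and at 5.73, 7.90, 2.29 and 3.07 CPM in IP. All IP libraries lay below all input libraries (-1.75 ± 0.34, adjusted p = 0.00132). Oprm1, the mu receptor gene, was nearly level in the mean, at 20.8 ± 0.8 CPM in input and 20.5 ± 6.8 CPM in IP (SD, n = 4). Its log2 fold change of -0.02 ± 0.20 (adjusted p = 0.957) took either sign among the alternatives, and the IP libraries spread from 13.5 to 29.8 CPM. Its exons overlap those of Ipcef1 on the opposite strand, and with no stated strand setting reads of the pair cannot be told apart. Oprd1, the delta receptor gene, had -0.48 ± 0.49 (adjusted p = 0.460), with IP replicates 1 and 2 at 5.06 and 4.61 CPM, above all input libraries, and replicates 3 and 4 at 1.46 and 0.830 CPM, below all of them. The opioid precursor genes Penk (-1.63 ± 0.16) and Pdyn (-1.86 ± 0.25) were lower in IP, and the nociceptin precursor gene Pnoc had -0.49 ± 0.20 (adjusted p = 0.0603).

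Of the somatostatin receptor genes, Sstr1 was higher and Sstr3 lower. Sstr1 (ENSMUSG00000035431, chromosome 12, 58211772 to 58214444, plus strand) was at 2.62, 2.31, 2.86 and 1.79 CPM in input replicates 1 to 4 and at 7.73, 4.37, 3.28 and 3.47 CPM in IP. The groups did not overlap (0.98 ± 0.33, adjusted p = 0.0318), but IP replicate 1 was far above the others. Without that library the log2 fold change was 0.63 (adjusted p = 0.0887), and over 18 alternatives the call held in 10 (adjusted p 0.0129 to 0.0908). Sstr3 (ENSMUSG00000044933, chromosome 15, 78537008 to 78544685, minus strand), a somatostatin receptor gene of neuronal cilia, was at 5.26, 6.81, 6.01 and 5.31 CPM in input and at 0.513, 3.39, 1.85 and 2.79 CPM in IP. It was lower in every IP library (-1.46 ± 0.45, adjusted p = 0.0214), and the call ended without input replicate 2 (-1.37, adjusted p = 0.0612) or 3 (-1.44, 0.051), with adjusted p from 0.00265 over 18 alternatives. Sstr2 (-0.16 ± 0.36, adjusted p = 0.758) and Sstr4 (-0.20 ± 0.58, adjusted p = 0.805) were not called, and their IP libraries lay on both sides of the input libraries. The ligand gene Sst was higher in IP (42.2 ± 5.8 and 230 ± 50 CPM, log2 fold change 2.45 ± 0.16).

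Galr1 (ENSMUSG00000024553, chromosome 18, 82392380 to 82406777, minus strand), the receptor 1 gene for galanin, was at 3.88, 2.00, 3.14 and 3.58 CPM in input replicates 1 to 4. In IP it was at 0.195, 0.284, 0.476 and 1.26 CPM, below every input library (-2.52 ± 0.58, adjusted p = 0.00427). Without IP replicate 4, the highest, the log2 fold change was -3.29 (adjusted p = 0.000428). The ligand gene Gal was lower too (-1.54 ± 0.39).

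Of 18 receptors that couple to Gq, 2 were higher, 7 lower and 9 not called, with a median of -1.10, where 24.5% of all tested genes were higher and 20.9% lower. Whether the classes differ was not tested. Beside Agtr1a, the higher one was Prokr2 (ENSMUSG00000050558, chromosome 2, 132337733 to 132385447, minus strand), the receptor 2 gene for prokineticins. It stood at 9.70, 7.89, 8.85 and 8.80 CPM in input replicates 1 to 4 and at 17.7, 20.7, 9.33 and 21.8 CPM in IP. In IP replicate 3 it was within the input range and in the other 3 IP libraries well above it (0.98 ± 0.23, adjusted p = 0.00526).

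Cckbr had the lowest log2 fold change of the set. Cckbr (ENSMUSG00000030898, chromosome 7, 105425731 to 105470898, plus strand) encodes the receptor for cholecystokinin and gastrin that prevails in brain. It was at 5.35, 5.26, 6.87 and 6.54 CPM in input replicates 1 to 4 and at 0.796, 0.813, 0.938 and 0.226 CPM in IP. The highest IP library was far below the lowest input library (-3.09 ± 0.40, adjusted p = 7.79e-05). Its relative Cckar, known from the gut and the vagus nerve, had -1.06 ± 0.49 (adjusted p = 0.0997) at 5.35 to 7.22 CPM in input and 1.86, 3.16, 6.54 and 0.805 CPM in IP. IP replicate 3 alone lay within the input range, and without it Cckar was called lower (-1.73, adjusted p = 0.00393, with 0.00393 to 0.199 over 18 alternatives). The ligand gene Cck was lower by -1.40 ± 0.23.

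Both tachykinin receptor genes were lower. Tacr1 (ENSMUSG00000030043, chromosome 6, 82402334 to 82560104, plus strand), the substance P receptor gene, stood at 7.52, 7.70, 8.22 and 8.75 CPM in input replicates 1 to 4 and at 1.88, 1.51, 2.37 and 0.453 CPM in IP (-2.36 ± 0.40, adjusted p = 0.000514). Tacr3 (ENSMUSG00000028172, chromosome 3, 134829007 to 134934579, plus strand), the neurokinin B receptor gene, stood at 9.34, 9.05, 7.96 and 8.08 CPM in input and at 1.19, 2.08, 2.81 and 1.53 CPM in IP (-2.17 ± 0.28, adjusted p = 6.95e-05). In both genes the fractions were wide apart. The ligand genes Tac1 (-1.64 ± 0.20) and Tac2 (-1.51 ± 0.16) were lower as well.

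Ntsr1, Oxtr, Trhr and Hcrtr2 were also lower. Ntsr1 (ENSMUSG00000027568, chromosome 2, 180499976 to 180544980, plus strand), the neurotensin receptor 1 gene, was at 8.76, 7.55, 5.84 and 9.45 CPM in input replicates 1 to 4 and at 2.05, 2.82, 0.866 and 4.80 CPM in IP (-1.59 ± 0.42, adjusted p = 0.00945). The ligand gene Nts (-2.07 ± 0.28) and the second receptor gene Ntsr2 (-1.68 ± 0.15) were lower. Oxtr (ENSMUSG00000049112, chromosome 6, 112473683 to 112489943, minus strand), the oxytocin receptor gene, was at 5.95, 5.80, 5.77 and 4.61 CPM in input and at 2.97, 2.42, 2.99 and 1.26 CPM in IP (-1.20 ± 0.30, adjusted p = 0.00666). In these 2 genes no IP library reached the lowest input library.

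Trhr and Hcrtr2 had less secure calls. Trhr (ENSMUSG00000038760, chromosome 15, 44196135 to 44235912, plus strand), the main receptor gene for thyrotropin-releasing hormone, was at 8.66, 7.46, 8.66 and 6.49 CPM in input replicates 1 to 4. In IP it was at 3.57, 1.00, 6.30 and 1.53 CPM (-1.32 ± 0.47, adjusted p = 0.0389), with replicate 3 just under the lowest input library. The call held in 8 of 18 alternatives (adjusted p 0.00205 to 0.206). It ended with library totals alone (-1.21, adjusted p = 0.0589), with centred offsets for GC content and length (-0.74, 0.206), and without any 1 library other than IP replicate 3, where adjusted p was 0.0592 to 0.0923. Without IP replicate 3 the log2 fold change was -1.93 (adjusted p = 0.00205). Hcrtr2 (ENSMUSG00000032360, chromosome 9, 76225880 to 76323856, minus strand), the orexin receptor 2 gene, was at 3.97, 3.67, 4.61 and 4.59 CPM in input and at 1.75, 2.33, 2.77 and 0.779 CPM in IP (-1.14 ± 0.37, adjusted p = 0.0268). All IP libraries lay below all input libraries. The call held in 12 of 18 alternatives (adjusted p 0.00608 to 0.129), ending with the offsets (-0.73, 0.127) and without input replicate 1, 2, 3 or 4 (adjusted p = 0.0608, 0.0525, 0.0787 and 0.079). The ligand genes Trh (-2.36 ± 0.40), Hcrt (-1.89 ± 0.15) and Oxt (-1.43 ± 0.14) were lower in IP.

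The other Gq-coupled members were not called, and most were low. Avpr1a, a vasopressin receptor gene, had 0.70 ± 0.33 (adjusted p = 0.110) at 1.98 to 2.95 CPM in input and 2.04 to 5.36 CPM in IP, and without IP replicate 1 it was called higher (0.91, adjusted p = 0.0172, with 0.0172 to 0.251 over 18 alternatives). Its ligand gene Avp was lower (-1.23 ± 0.20). The bombesin-like receptor genes had 0.33 ± 0.48 for Nmbr, -1.06 ± 0.53 for Grpr and 0.66 ± 0.41 for Brs3 (adjusted p = 0.605, 0.124 and 0.213). The 4 IP libraries of Grpr, at 0.230 to 1.70 CPM, lay below its input libraries at 2.17 to 2.72 CPM without a call, and in limma-voom Grpr was called lower (-1.35, adjusted p = 0.0472, with 0.0472 to 0.244 over 18 alternatives). Nmbr overlaps the antisense gene B230364G03Rik, which held 38.8 counts over the 8 libraries against 665.2. Brs3, an orphan receptor gene known for its part in energy balance, stood at 2.89 to 3.04 CPM in 3 IP libraries, above the input range of 1.21 to 1.96 CPM, and at 1.11 CPM in IP replicate 4. Without IP replicate 4 Brs3 was called higher (0.91, adjusted p = 0.0469, with 0.0469 to 0.386 over 18 alternatives). Nmb, the gene of neuromedin B and the ligand of the Nmbr product, was higher in IP (0.978 ± 0.245 and 2.73 ± 0.99 CPM, adjusted p = 0.0105), and Grp had -0.65 ± 0.56 (adjusted p = 0.373).

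Hcrtr1, the orexin receptor 1 gene, had -1.04 ± 0.94 (adjusted p = 0.397), with 0 counts in IP replicate 3 and 1.77 CPM in IP replicate 1. Nmur2, a neuromedin U receptor gene, had -1.45 ± 0.68 (adjusted p = 0.106) at 1.12 to 2.26 CPM in input and 0.106 to 1.16 CPM in IP. It was called lower without IP replicate 4 (-2.05, adjusted p = 0.0331) and in limma-voom (-1.93, 0.0258), with adjusted p up to 0.261 over 18 alternatives. Kiss1r, the kisspeptin receptor gene, had -0.18 ± 0.45 (adjusted p = 0.777), and its exons overlap those of R3hdm4 on the opposite strand, which held 29124 counts over the 8 libraries against 997 for Kiss1r. Trhr2, a second receptor gene for thyrotropin-releasing hormone, was at 0.233 to 0.291 CPM in input and at 0 in IP replicates 1 and 3 (-1.44 ± 1.13, adjusted p = 0.328). Without IP replicate 2, which held 13 counts, it was at -2.53 (adjusted p = 0.127). Prlhr, which was not tested, stood at 0.186 to 0.442 CPM in input. In IP it was at 0.0177, 0.567, 0 and 0 CPM, so that its IP signal came almost wholly from replicate 2.

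Gpr83, an orphan-like receptor gene for which a peptide of the proSAAS precursor has been proposed as ligand, was not called but close to the threshold. It stood at 10.7, 10.1, 9.94 and 11.4 CPM in input replicates 1 to 4 and at 6.02, 9.95, 6.68 and 8.32 CPM in IP. IP replicate 2 just reached the lowest input library. Its difference was -0.45 ± 0.18 (adjusted p = 0.0681), and it was called lower in 6 of 18 alternatives (adjusted p 0.0173 to 0.175), among them DESeq2 (0.0314) and the fit without IP replicate 2 (-0.59, 0.0173). Pcsk1n, the proSAAS gene, was higher by 2.60 ± 0.08.

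Set against markers of other cells, the 10 lower receptors lay in 3 ranges. The log2 fold changes of Cckbr, Galr1, Tacr1 and Tacr3 were below the lowest median of the 8 marker lists. Single markers spread wider than these medians, down to -2.79 for Crh. Of all receptors called lower only Cckbr (-3.09) lay below every marker. Those of Oprk1, Ntsr1, Sstr3 and Trhr lay within the range of these medians, and Oxtr and Hcrtr2 lay above it. The differences between these receptors and the markers were not tested.

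Levels of different genes were compared per kb of the longest protein-coding transcript. Adcyap1r1 led in IP with 35.0 ± 2.1 CPM per kb (SD, n = 4), more than 91.1% of tested genes, followed by Oprl1 with 15.6 ± 1.3 and Oprm1 with 8.48 ± 2.80. The ranges of these 3 genes over the IP libraries did not overlap (32.2 to 37.3, 13.9 to 17.0 and 5.58 to 12.3 CPM per kb). Next came Mchr1 (5.77 ± 2.87), Crhr1 (4.44 ± 0.93), Prokr2 (3.87 ± 1.26), Agtr1a (3.30 ± 1.04), Npffr2 (2.83 ± 0.74), Sstr1 (2.34 ± 1.03) and Gpr83 (2.16 ± 0.49), and the range of each overlapped that of its neighbours in this order. In all, 15 members reached a mean of 1 CPM per kb in IP. The place of Oprm1 depended on the length used, 2420 bases here against 8037 for the union of its annotated exons. Per kb of union exons it was at 2.55 ± 0.84 CPM in IP, rank 7, below Mchr1 (5.77), Crhr1 (4.44), Npffr2 (2.83) and Agtr1a (2.60), while Adcyap1r1 (32.4) and Oprl1 (12.4) stayed first and second. Prokr2 was at 2.19 ± 0.71 on that scale, rank 9.

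Per kb of the longest transcript the same 3 genes led in input, where Adcyap1r1 was at 25.5 ± 1.2, Oprl1 at 10.6 ± 0.9 and Oprm1 at 8.59 ± 0.34 CPM per kb. Per kb of union exons Oprm1 was at 2.59 ± 0.10 CPM in input, still rank 3. Below them the order differed between the fractions. Crhr1 was at rank 22 of 36 in input and 5 in IP, Agtr1a at 32 and 7, Npffr2 at 33 and 8, and Mchr1 at 13 and 4. Oprk1 went the other way, from rank 4 to 15 (11 to 22 with union exons), as did Cckbr from 6 to 30, Tacr3 from 7 to 25 and Tacr1 from 14 to 29. Of the summed receptor level per kb, Adcyap1r1 took 29.6% ± 1.7 in input and 35.1% ± 1.4 in IP, Oprl1 12.3% ± 0.8 and 15.6% ± 1.2, and Oprm1 9.97% ± 0.18 and 8.53% ± 2.81.

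**Figure D3:**
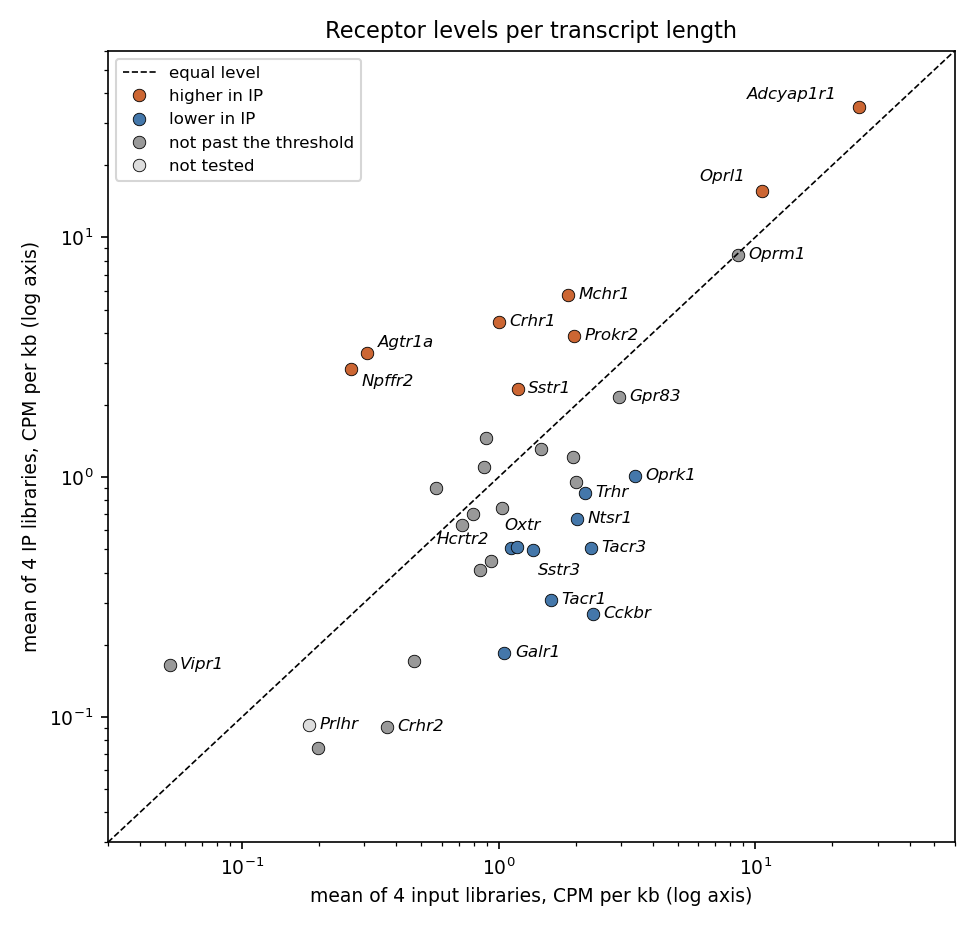
Mean level in input (horizontal) against mean level in IP (vertical) in CPM per kb of the longest protein-coding transcript, both on log axes, for the 36 receptor genes, coloured by call. Adcyap1r1 and Oprl1 lie at the top right, next to them Oprm1, whose IP level would be 2.55 CPM per kb of union exons, Agtr1a and Npffr2 lie farthest above the dashed line of equal level, and Cckbr lies farthest below it.

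The receptors varied more between IP libraries than between input libraries. The coefficient of variation over 4 libraries had a median of 49.7% in IP and 13.6% in input over the 35 tested receptors, against 24.9% and 9.61% over all tested genes. It was higher in IP in 34 of 35 receptors, and in 88.6% of all tested genes. In IP it was larger than counting error alone gives in all 35, while in input Trhr2, Vipr1 and Oprd1 lay below that error. For Mchr1 it was 49.7% in IP, where the mean count alone gives 3.72%, and for Oprm1 33.1% where it gives 2.91%. Adcyap1r1 (6.09%) and Oprl1 (8.29%) had the smallest spread in IP. In 17 tested receptors it was over 50% in IP, and 5 of the 36 had no count in at least 1 IP library. The receptors are low genes, with a median of 196 counts per library against 535 over all tested genes.

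**Figure D4:**
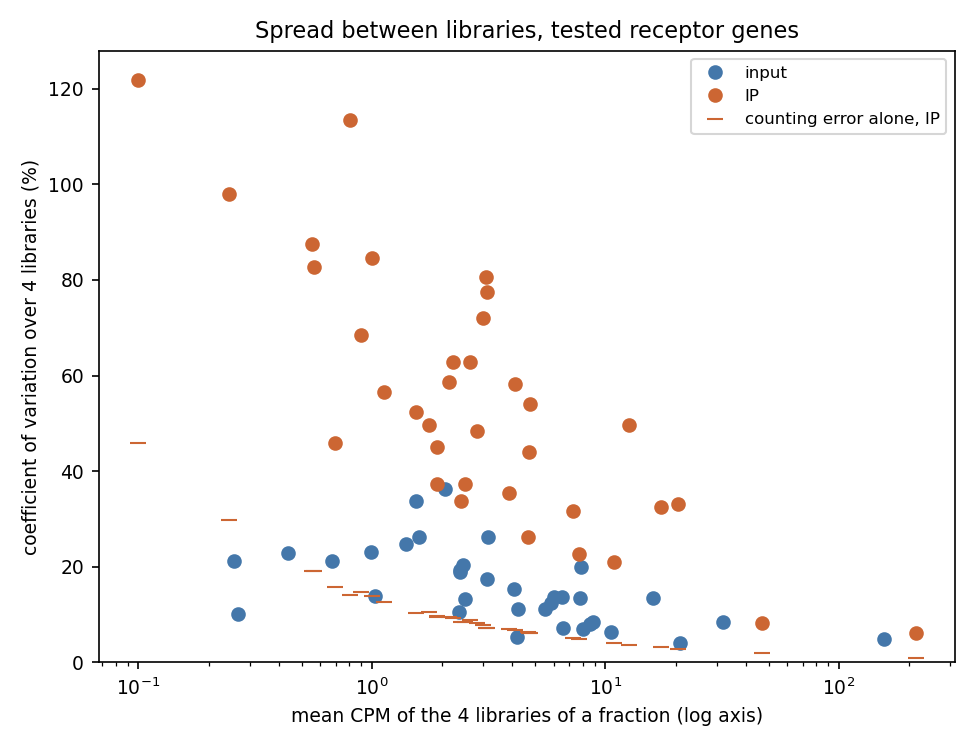
Coefficient of variation over the 4 libraries of a fraction (vertical, percent) against mean CPM (horizontal, log axis) for the 35 tested receptor genes in input (blue) and IP (orange), with dashes for counting error alone in IP. The IP points lie above their dashes, and those of Adcyap1r1 and Oprl1, the highest genes, are lowest.

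Of 33 ligand precursor genes 27 were tested, of which 3 were higher in IP (Sst, Pcsk1n and Nmb), 17 lower and 7 not called, with a median log2 fold change of -1.43. The lower ones with the smallest p were Pmch, Hcrt and Penk. Of 11 further receptor genes of the same families 5 were tested, with Npffr1 higher and Ntsr2 and Agtr2 lower. Of 16 genes for G protein alpha subunits, arrestins and receptor kinases 9 were higher, 3 lower and 4 not called, with a median of 0.35. Over all tested genes, the background of these lists, 24.5% were higher and 20.9% lower, with a median of -0.01. Gnai2, an inhibitory subunit gene, rose from 107.5 ± 1.3 to 269 ± 11 CPM (1.33 ± 0.06), Gnaz by 0.88 ± 0.07 and Gnal, a stimulatory subunit gene, by 0.76 ± 0.07. Arrb1, which encodes an arrestin that ends receptor signalling, fell by 1.52 on the log2 scale (SE 0.16), while Arrb2 was higher by 0.43 ± 0.14. Gnai1 (-0.32 ± 0.07) and Gnai3 (-0.28 ± 0.10) were lower.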

How the data were processed

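RNA sequencing of 4 IP and 4 input libraries was analysed. The authors deposited estimated counts for each gene without normalization. The submitters' processing notes name Salmon 0.14.1 and GRCm38.p6. For annotation, trimming and strand, no setting was given in the sources used. Each replicate is labelled as its own pool, and whether IP and input of a number share a pool is not stated. Replicates differed by more than sampling noise. Counts were rounded and tested with edgeR 4.0.16 (R 4.3.3): filterByExpr (minimum count 10), TMM factors, quasi-likelihood test without covariate, Benjamini-Hochberg adjustment over 17000 genes. Each SE was derived from the log2 fold change and its F statistic. Both fractions shared an estimate of the spread, so SE and adjusted p do not reflect the wider IP spread by itself. The fit was tested on simulated data with the same spread in both fractions, so that test does not cover the wider spread of IP. Lengths, coordinates and GC content came from GENCODE M21 (98.8% of identifiers matched), and promoters from RefSeq.

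Alternatives were RLE, upper quartile and no factors, 2 other filters, DESeq2 1.42.0, limma-voom (limma 3.58.1), the replicate block, offsets for GC content and length (smooths by mgcv 1.9.3), and leaving out each library. The offsets were first run without centring. Centring each library's smooth, so that TMM sets the scale, was introduced after the members' calls had been seen, and the uncentred version is kept as an added alternative. All members may be named. Of the other lists the 3 genes with the smallest p in each direction, ligands of described members, AgRP markers and Mff are named, and Arrb2, Agtr1b and Npff were added after their values were seen. The motif TATAAA was added, and the window of Tacr1, which overlaps its own exon, left out, after the sequences were seen. The members and lists were chosen with earlier results of these data known.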

Additional observations from a re-analysis of the deposited data

Results flagged for a closer look

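Among 72 groups of 4 libraries (36 receptors in 2 fractions), 6 held a library whose CPM lay far from the other 3 by Dixon's 95% criterion, where chance flags about 1 in 20 groups. In input these were Oprk1 in replicate 1 (19.2 CPM, others 14.6 to 15.3), Oxtr in replicate 4 (4.61 CPM, others 5.77 to 5.95) and Nmbr in replicate 1 (0.885 CPM, others 1.51 to 1.62). In IP they were Brs3 in replicate 4 (1.11 CPM, others 2.89 to 3.04), Npffr2 in replicate 4 (6.46 CPM, others 3.84 to 4.20) and Prlhr in replicate 2 (0.567 CPM, others 0 to 0.0177). The calls of Oprk1, Oxtr and Npffr2 held without any 1 library.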

How the results depend on the processing

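Under 18 alternatives 7 to 9 receptors were called higher and 7 to 15 lower, and leaving out each library in turn gave 7 to 9 higher, 7 to 12 lower and 14 to 20 in all. Counts over all genes moved too, between 3342 and 4820 higher and between 2862 and 4606 lower. The 15 lower receptors came in limma-voom, where 4606 of 17000 tested genes were lower. Of the 8 higher receptors 7 kept the call in all 18 (all but Sstr1), and of the 10 lower 7 did (all but Sstr3, Trhr and Hcrtr2). Same-numbered input and IP libraries had correlations of 0.089, 0.062, 0.076 and 0.106 between their deviations. Those between unlike numbers ran from -0.064 to 0.008, so each library correlated best with its own number. Shared pools are thus possible, but no source states them. The main fit was run without pairing, and the replicate block is an alternative. With the replicate block 7 receptors were higher and 11 lower (7592 genes called), Sstr1 lost its call (0.91, adjusted p = 0.0513) and Cckar gained one (-1.39, 0.0304), and the receptors' median moved from -0.48 to -0.82, or to -0.83 with the centred GC and length offsets as well. Without a library it ran from -0.75 to -0.46. The offsets not centred, the version run first, were added after the calls had been seen and raised the median of all genes to 0.40 (0.32 with the block). They gave 7121 genes higher and 1990 lower, or 6726 and 2134 with the block, against 4171 and 3545, and 9 receptors higher and 8 lower with the block. The median of all genes was -0.15 with upper quartile factors, -0.26 without a filter and -0.10 in limma-voom. Differences that changed sign were not called under any of these settings. Oprm1 had 0.095 with library totals, 0.093 with centred offsets, 0.032 with these and the block, 0.499 and 0.422 with offsets not centred, and -0.250 to 0.142 without a library. With offsets not centred Sstr2 had 0.135, or 0.062 with the block added, and Kiss1r had 0.177 under these offsets without the block. Without a library Sstr2 ran from -0.500 to 0.030, Sstr4 from -0.674 to 0.072 and Kiss1r from -0.634 to 0.078. The cause of these changes was not tested. With union exon lengths 12 receptors reached 1 CPM per kb, and 16 with library totals. In IP, receptors under about 1 CPM rest on few counts.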
